A study of Mus musculus with 96 samples.

Results

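Livers of mice labelled SIRT1Tg/Tg, which was taken to mean a Sirt1 transgene, were compared directly with livers of wild-type mice under caloric restriction. The comparison used 12 of the 96 arrays of the series: 6 liver arrays whose names carry the condition SiRT1 and 6 whose names carry the condition CR. The SIRT1Tg/Tg mice ate a low fat diet without restriction. The CR mice were wild-type C57/Bl6 animals held for 3 months on the restriction that the labels name EODF, an abbreviation they do not expand. All animals were male and, in the labels' protocol, were killed in the morning after a fast of 12 hours. The 2 groups differ in genotype and in feeding at once, so the effects of each cannot be told apart in the direct comparison. The promoter that drives the transgene, the strain that carries it and the age of the animals are not stated in the sources used here. The same model also held 6 liver arrays of wild-type mice fed freely (WT). It held 6 more of mice labelled wild-type that had a running wheel for 10 weeks (EX). Both groups helped to set the spread and gave a reference level. The number in an array's name was taken as the animal's number. The labels do not say in other words that the samples came from separate animals, so the p-values measure the spread between these samples.

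SIRT1 is a deacetylase that needs NAD+ as a cofactor, and it acts in liver on transcription factors and coactivators of fasting metabolism. Restriction of food and raised SIRT1 activity have often been set side by side because both are known to act on fat oxidation, glucose production and the circadian clock. In the fasting liver, fatty acids activate the nuclear receptor PPAR alpha, which raises transcription of genes for fatty acid oxidation, ketone production and lipid storage. After refeeding, insulin and the factor SREBP-1c raise the genes of fatty acid synthesis.

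RNA was measured on Illumina bead arrays. Values are log2 intensities of background-corrected signals (offset 16) whose 24 liver arrays were brought to 1 distribution by quantiles, and differences are SIRT1Tg minus CR on that scale, which understates the fold change of dim probes. Array liver_1953_SiRT1 was dim: it had 5841 probes above background, where the rest of the SIRT1Tg group had 11631 to 12634 and the CR group 11950 to 12518. The hepatocyte transcripts Ttr (13.58 to 13.99 over the 24 arrays) and Apoa1 (13.72 to 14.14) were among the brightest probes, whereas the probe for Alb read only 4.27 to 5.23. The last number in an array's deposited name was taken as its slide, which the labels do not state. On that reading the SIRT1Tg arrays lay on 4 slides and the CR arrays on 6. They had 0 slides in common, so slide and group cannot be separated within a slide. The CR animals all had numbers above 2000, and the SIRT1Tg animals were split 3 and 3 by that number. The model therefore held the number series as a term, estimated from WT and SIRT1Tg arrays; that term passed the threshold for 0 genes in limma's moderated test (1735 at an unadjusted p under 0.05).

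Sirt1 itself separated the groups on all arrays but the dim one. Its level was 4.48 on liver_1953_SiRT1 and 7.34 to 7.65 on the other 5 SIRT1Tg arrays, against 5.79 to 6.30 on the 6 CR arrays and a WT median of 6.12. With all arrays the difference was 1.15 ± 0.36 (SE, n = 6 and 6) and missed the threshold (limma adjusted p = 0.0822). Without the dim array it was 1.39 (adjusted p = 7.72e-07), and with the 3 SIRT1Tg animals numbered above 2000 alone it was 1.41 (adjusted p = 0.000635). The dim array is thus the library that carries the SIRT1Tg label without a raised Sirt1 level, and the results below are given with and without it where it matters.

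Of 9973 genes or unnamed probes tested, 252 (2.53%) differed between SIRT1Tg and CR liver at a Benjamini-Hochberg adjusted p under 0.05 (limma). SIRT1Tg was higher for 100 of them (1%) and CR for 152 (1.52%). The smallest difference that passed was 0.36 and the median size was 0.76. All 6 SIRT1Tg arrays lay above all 6 CR arrays for 128 of the genes tested (1.28%) and below them for 322 (3.23%). Among the genes that passed, this held for 50 of the 100 and for 98 of the 152. The split depended on scaling: aligning array medians in place of quantile normalisation moved the median difference of all genes from -0.02 to -0.145 and left 49 calls, 11 higher in SIRT1Tg (22.4%) and 38 higher in CR, where the quantile-normalised values gave 39.7% higher in SIRT1Tg. With slide as a fixed term in the liver fit 1 gene passed, and with slide as a random block 241 did. The fixed term leaves the contrast to few arrays, as described at the end. No conclusion is drawn from that count or from later counts with slide fixed.

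Both repeats kept the direction of all 252 genes. They reuse arrays of the fit that picked these genes, so a kept direction was likely from the start and nothing is read from it. Leaving out the dim array gave 607 calls, 273 higher in SIRT1Tg and 334 higher in CR, and these held all 252. Keeping only the 3 SIRT1Tg animals numbered above 2000 against the 6 CR animals gave 646 calls, 290 higher in SIRT1Tg and 356 higher in CR, which held 207 of the 252. Of 52 genes that are named here and passed, 52 did so without the dim array and 46 with the 3 animals. The 6 lost were Tubb2b, Tk1, Srebf1, Lpl, Cpt2 and Ciart, with adjusted p between 0.0545 and 0.136.

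**Figure D1:**
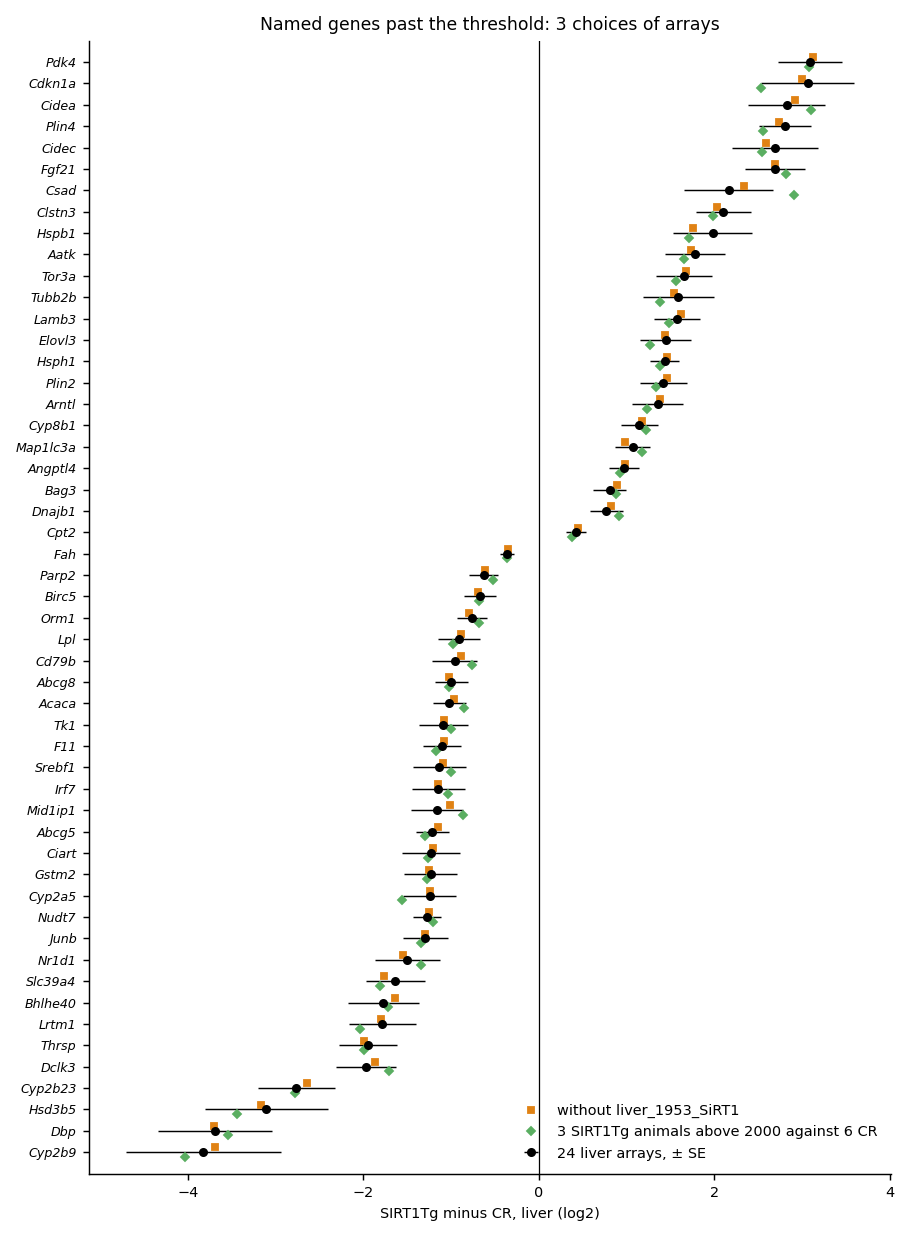
Differences between SIRT1Tg and CR liver (log2) for the 52 named genes that passed, 1 gene a row: black circles with standard errors from the fit of 24 liver arrays, squares without the dim array, and diamonds with the 3 SIRT1Tg animals numbered above 2000. No gene crosses 0 in either repeat, and both repeats reuse arrays of the fit that picked the genes.

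Of 26 tested PPAR alpha target genes 12 were higher in SIRT1Tg and 0 in CR, with a median difference of 0.776 beside -0.02 for all genes. Of 16 lipid droplet genes 7 were higher in SIRT1Tg and 0 in CR, with a median of 0.50. Plin4, Plin2, Plin5 and Cidec stand in both lists, so the lists are not separate counts. Without the dim array the counts were 14 and 9, with aligned array medians 4 and 3, and with slide fixed 0 and 1, and the medians of both lists kept their sign under every alternative run. Calls higher in SIRT1Tg over all 9973 features moved too, from 100 in the main fit to 273, 11 and 1 in these settings.

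Pdk4, the kinase that blocks entry of pyruvate into the citric acid cycle during fasting, read 7.78, 8.32 and 9.63 (lowest, median and highest) in SIRT1Tg and 5.11, 5.35 and 6.67 in CR, with a WT median of 7.11. No array of one group reached the range of the other. The difference was 3.10 ± 0.36 (SE), or 8.55-fold (limma adjusted p = 3.04e-05). Fgf21, a hormone that the fasting liver secretes, ranged from 8.87 to 10.15 with a median of 9.48 in SIRT1Tg and from 5.92 to 7.92 with a median of 6.86 in CR. These ranges did not overlap either, and the difference was 2.69 ± 0.34, 6.46-fold (adjusted p = 7.23e-05). Angptl4, a secreted inhibitor of lipoprotein lipase, was 0.97 ± 0.17 higher (adjusted p = 0.00242), from 11.08 to 11.49 against 10.09 to 10.95. Other members that passed were the carnitine transporter Slc22a5 (1.34), the carnitine palmitoyltransferase Cpt1b (1.25), the peroxisome factor Pex11a (0.94) and the acyl-CoA thioesterases Acot4 (0.88) and Acot1 (0.67). Acot1 and its neighbours are close paralogs, so a probe may read more than 1 of them. Values for Cyp4a14 (0.05), Acaa1b (-0.02) and Ppara itself (0.46), which belong to the same list, did not pass.

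**Figure D2:**
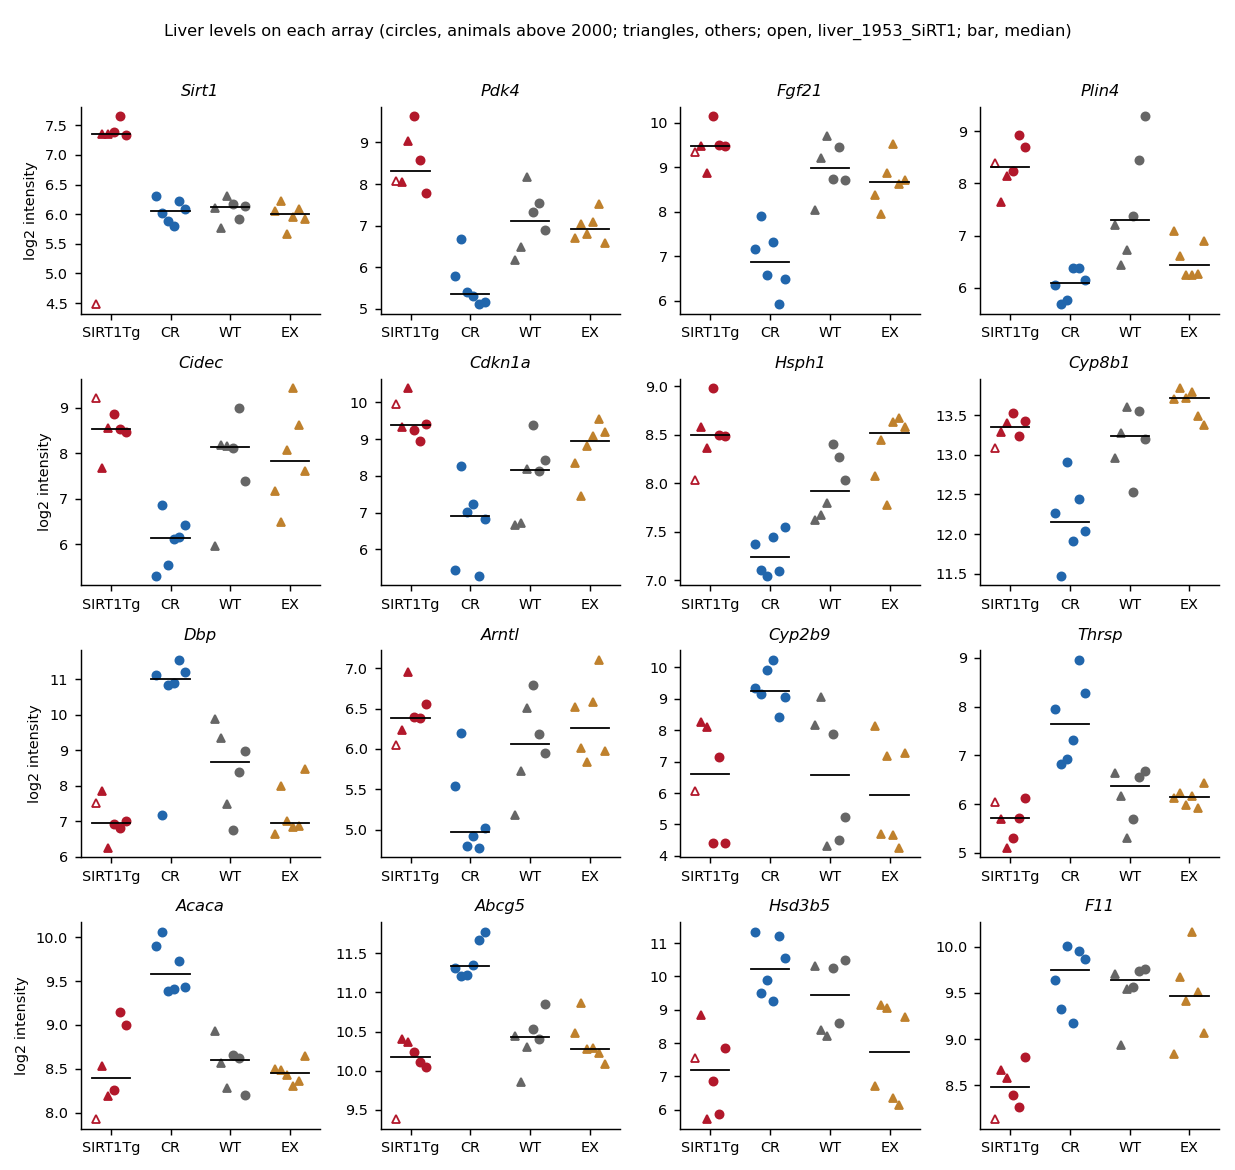
Normalised log2 intensity of selected genes on each liver array of the 4 groups, 1 panel a gene: circles are animals numbered above 2000, triangles the others, the open triangle the dim array and the bar the median. For Pdk4, Plin4, Fgf21 and Acaca the 2 groups do not overlap, and for Sirt1 the dim array is the 1 SIRT1Tg array below the CR arrays.

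Proteins that coat lipid droplets or join them followed the same direction. Plin4, a perilipin, read 7.65, 8.32 and 8.93 in SIRT1Tg against 5.69, 6.10 and 6.39 in CR, the smallest p of all genes tested (difference 2.81 ± 0.29, limma adjusted p = 1.32e-05). Cidec, which promotes fusion of lipid droplets, ran from 7.67 to 9.21 against 5.31 to 6.86 (2.69 ± 0.49, adjusted p = 0.00335), again without overlap. Plin2, the main perilipin of hepatocytes, ran from 10.43 to 11.51 against 8.90 to 10.75, with a difference of 1.42 ± 0.27 (adjusted p = 0.00428); 1 CR array, liver_2236_CR, accounts for the overlap. Plin5 (1.23), the lipolysis inhibitor G0s2 (1.15) and Fitm2 (0.46), a protein of droplet budding, also passed. Cidea, a relative of Cidec that is best known from brown fat, was above background on 5 SIRT1Tg, 2 WT, 2 EX and 0 CR arrays. It met the filter of 6 arrays only through the SIRT1Tg group, where it was high. Its p-value and its place among the 7 lipid droplet genes are therefore no independent support. Cidea read 4.16, 5.70 and 8.83 in SIRT1Tg and 4.17, 4.19 and 4.33 in CR, which gives at least 2.91-fold higher (limma adjusted p = 0.000828 in the fit). The size depended on how the number series was handled. With the 12 arrays alone and no series term the difference was 1.78 (limma adjusted p = 0.121). With the 3 SIRT1Tg animals above 2000 against CR it was 3.10 (limma adjusted p = 0.00408). Cidec and Cidea are also among the adipocyte and brown adipocyte markers. The mean of the 5 adipocyte markers tested ran from 6.76 to 7.34 in SIRT1Tg and from 6.33 to 6.47 in CR, their part in the result was not tested, and in bulk liver more cells of a type cannot be told from more RNA per cell.

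Of 17 genes of fatty acid oxidation inside the mitochondrion tested, Cpt2, which forms acyl-CoA at the inner membrane, was higher in SIRT1Tg (10.78 to 11.36 against 10.36 to 10.74; 0.43 ± 0.11, limma adjusted p = 0.0439) and 0 were higher in CR, with a list median of 0.329. Without the dim array 5 passed, with the 3 animals above 2000 the count was 3, and with the 12 arrays less the dim one it was 8. Calls higher in SIRT1Tg over all 9973 features rose too, from 100 in the main fit to 273, 290 and 534 in these settings. Cpt2 kept its call in 9 of 24 omissions of 1 array. Of 59 genes of oxidative phosphorylation 0 passed in either direction in limma, and their median of 0.119 became -0.092 with aligned array medians. Of 23 genes of glucose production and its control 0 passed: Pck1, the enzyme that commits carbon to gluconeogenesis, read 6.92 to 7.94 in SIRT1Tg and 5.19 to 7.34 in CR (0.65 ± 0.37, adjusted p = 0.412), and the coactivator Ppargc1a, a classical SIRT1 substrate, differed by -0.23 ± 0.27 (adjusted p = 0.751).

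**Figure D3:**
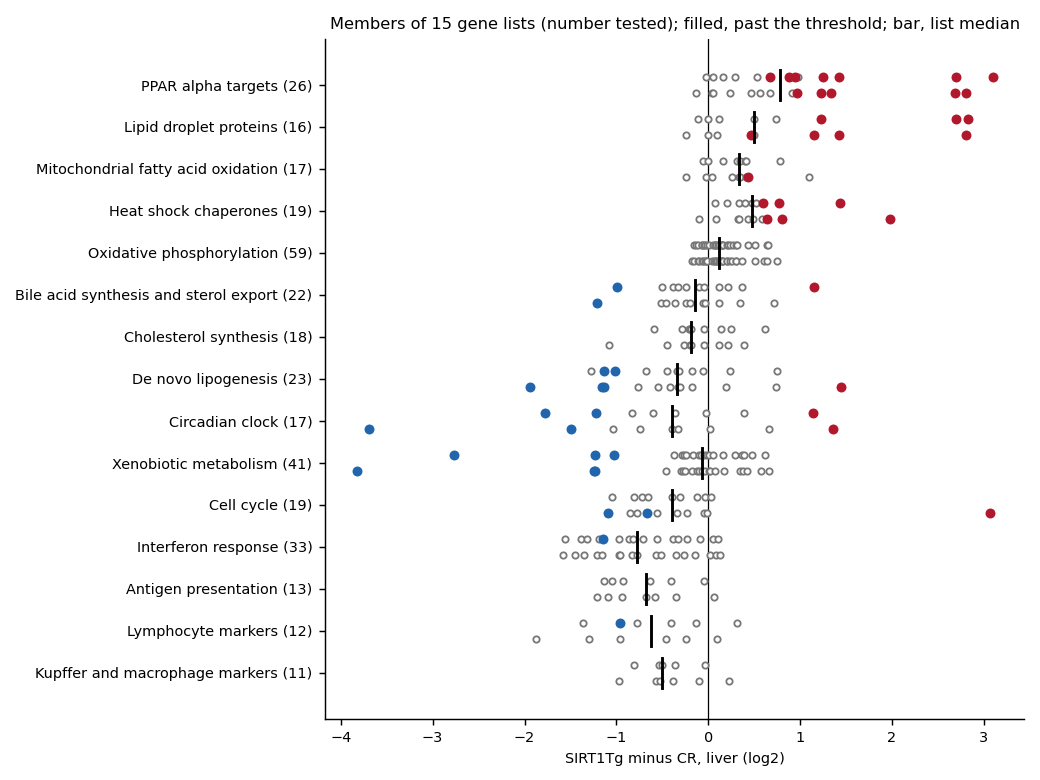
Differences between SIRT1Tg and CR liver (log2) for the tested members of 15 gene lists, 1 point a gene, with the number tested in parentheses, the list median as a bar and genes past the threshold filled (red, higher in SIRT1Tg; blue, higher in CR). PPAR alpha targets lie highest (median 0.776), the interferon list lowest (median -0.771), and the median of all genes is -0.02.

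Of 19 heat shock chaperones tested, 6 were higher in SIRT1Tg and 0 in CR. The count was 1 without liver_2207_SiRT1, 2 without liver_2222_SiRT1, 4 without liver_2242_CR, 9 without the dim array, 1 with aligned array medians and 0 with slide fixed. Calls higher in SIRT1Tg over all 9973 features moved too, from 100 to 44, 50, 66, 273, 11 and 1 in the same order. The list median was 0.472, and Cryab (-0.10) was the only member below 0. Hsph1, a nucleotide exchange factor of HSP70, read 8.04, 8.49 and 8.98 in SIRT1Tg and 7.04, 7.24 and 7.55 in CR, with no overlap (difference 1.44 ± 0.17, 2.71-fold, limma adjusted p = 2.95e-05). Hspb1, a small heat shock protein that holds unfolded proteins, read 7.80, 8.38 and 10.83 against 6.32, 6.59 and 7.82 (1.98 ± 0.45, adjusted p = 0.0167), and the highest CR array, liver_2236_CR, overlapped the lowest SIRT1Tg array. Dnajb1, a cochaperone of HSP70, was 0.77 ± 0.18 higher (adjusted p = 0.0254) without overlap, and Bag3, which links HSP70 to autophagy, was 0.81 ± 0.18 higher (adjusted p = 0.0187) with overlap. The constitutive Hspa8 (0.64) and the HSP90 partner Chordc1 (0.59) also passed.

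The factor HSF1 is known to bind inverted GAA repeats, searched here as GAANNTTC on both strands from 250 bases before to 50 bases after the RefSeq start of each gene. That string was in the window of 2442 of 27025 genes (9.04%), of 543 of the 7498 tested genes with a window (7.24%), and of 9 of the 16 tested heat shock genes that have a window. Among 5 that passed and have one it was in Hspb1, Hsph1, Bag3 and Chordc1 and not in Dnajb1. A longer string, with 3 repeat units in place of 2, was also searched. It was in the window of 179 of the 27025 genes (0.662%) and of 38 of the 7498 tested (0.507%). Of the 16 heat shock genes 4 had it. Among the 5 that passed it was in Hsph1 and Chordc1 and not in Hspb1, Bag3 or Dnajb1. The difference of Hspb1 was among the 12 largest in favour of SIRT1Tg. For that reason its window is shown, and because it holds 2 of the shorter strings, starting 117 and 97 bases before the start. It is the 250 bases before the start at chr5:135887669-135887918, plus strand, assembly GRCm38.p6, with the matches in capitals. A match describes the letters and was not tested for binding.
Hspb1: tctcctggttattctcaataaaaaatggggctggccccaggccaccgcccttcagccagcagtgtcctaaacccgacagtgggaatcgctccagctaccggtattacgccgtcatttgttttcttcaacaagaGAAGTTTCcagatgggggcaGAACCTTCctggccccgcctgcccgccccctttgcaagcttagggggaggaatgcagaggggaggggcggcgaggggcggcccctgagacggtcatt

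Of 23 genes of fatty acid synthesis tested, 5 were higher in CR and 1 in SIRT1Tg, with a median of -0.346. The count of 5 became 2 without liver_2207_SiRT1 or liver_2222_SiRT1 and 3 without any of liver_2230_CR, liver_2239_CR, liver_2242_CR, liver_2245_CR, liver_2226_WT, liver_2231_WT or liver_2232_WT. It was 1 with aligned array medians and 0 with slide fixed. Calls higher in CR over all 9973 features moved too, from 152 to 52 without liver_2207_SiRT1 and 60 without liver_2222_SiRT1. They ran from 75 to 183 in the omissions that gave 3, and were 38 with aligned array medians and 0 with slide fixed. Acaca, the acetyl-CoA carboxylase that makes malonyl-CoA for synthesis, read 7.93, 8.40 and 9.15 in SIRT1Tg and 9.39, 9.58 and 10.06 in CR, so every CR array lay above every SIRT1Tg array (-1.02 ± 0.19, 2.03-fold, limma adjusted p = 0.00428). Thrsp, a lipogenic protein that responds to thyroid hormone and carbohydrate, read 5.11, 5.71 and 6.13 against 6.81, 7.64 and 8.96 (-1.94 ± 0.33, adjusted p = 0.00204). Mid1ip1, which polymerises acetyl-CoA carboxylase (-1.16), and Acss2, which makes acetyl-CoA from acetate (-1.13), also passed. Srebf1, which codes for the SREBP-1 factors, read 4.23 to 5.46 against 5.24 to 6.70 (-1.13 ± 0.31, adjusted p = 0.0459), and kept its call in 6 of 24 omissions of 1 array. The values of Fasn (-0.42), Acly (-0.55) and Scd1 (-0.18) did not pass. Elovl3, an elongase of very long chain fatty acids that is also male-biased in liver, went the other way, from 8.10 to 8.78 in SIRT1Tg and from 6.47 to 7.84 in CR (1.45 ± 0.29, adjusted p = 0.00684).

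The transporters that export sterols into bile were higher in CR. Abcg5 read 9.38, 10.18 and 10.40 in SIRT1Tg and 11.22, 11.33 and 11.78 in CR (-1.22 ± 0.19, 2.32-fold, limma adjusted p = 0.000828). Its partner Abcg8, with which it forms the transporter, read 8.36, 8.97 and 9.23 against 9.73, 10.05 and 10.39 (-1.0 ± 0.19, adjusted p = 0.00428). Neither pair of ranges overlapped. Cyp8b1, the sterol hydroxylase that sets the share of cholic acid, was higher in SIRT1Tg, from 13.09 to 13.53 against 11.47 to 12.90 (1.15 ± 0.21, adjusted p = 0.00388). The other 19 of 22 tested genes of bile acid synthesis and sterol export did not pass, among them Cyp7a1 (-0.33), the rate-limiting enzyme, and the list median of -0.147 changed sign with slide as a fixed term. Of 18 genes of cholesterol synthesis 0 passed in limma (median -0.186, and 0.144 with the 3 animals above 2000).

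Circadian clock genes differed in both directions. Of 17 tested, 2 were higher in SIRT1Tg and 4 in CR. The 4 became 1 without liver_2207_SiRT1 or liver_2222_SiRT1, and 2 without liver_2223_SiRT1, liver_2239_CR, liver_2242_CR or liver_2245_CR or with aligned array medians. Calls higher in CR over all 9973 features moved too, from 152 to 52, 60, 111, 75, 79, 86 and 38 in the same order. Dbp, an output factor of the clock, ranged from 6.26 to 7.85 in SIRT1Tg and from 7.19 to 11.54 in CR (-3.69 ± 0.65, 12.9-fold, limma adjusted p = 0.00242). Nr1d1, the repressor REV-ERB alpha, read 5.24, 6.77 and 7.33 against 7.58, 8.03 and 8.58 (-1.50 ± 0.37, adjusted p = 0.0305). Bhlhe40, a repressor of CLOCK and BMAL1, ran from 6.25 to 7.93 against 7.71 to 9.87 (-1.77 ± 0.41, adjusted p = 0.019). Arntl, which codes for BMAL1 and is repressed by REV-ERB alpha, went the other way, from 6.05 to 6.95 against 4.78 to 6.20 (1.35 ± 0.29, adjusted p = 0.0133), as did Nfil3 (1.14), a repressor that opposes DBP at shared sites. Values for Per1 (-0.36 ± 0.35, adjusted p = 0.694) and Per2 (-1.04) did not pass. The labels' protocol places the killing in the morning, and the hour for each animal was not used here. A shift in phase, a difference in the hour of killing and a change in level therefore cannot be told apart.

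One CR array stood apart on these genes. On liver_2236_CR Dbp read 7.19, whereas the other 5 CR arrays read 10.82 to 11.54. The same array had the lowest Bhlhe40 (7.71) and Ciart (4.52) and the highest Arntl (6.20) of the CR group. It was also the highest CR array for Pdk4 (6.67), Fgf21 (7.92), Cidec (6.86), Hspb1 (7.82) and Cdkn1a (8.27). Without it the differences were larger in size, -4.34 for Dbp, -2.05 for Bhlhe40, 1.55 for Arntl, 3.32 for Pdk4 and 2.90 for Fgf21. These genes were listed because the array lay nearest to SIRT1Tg on them, so nothing is read from the larger size. The array was the lowest of CR for Plin4 (5.69) and Cyp8b1 (11.47). Without it their differences fell from 2.81 to 2.73 and from 1.15 to 1.01. Calls over all genes went from 252 to 230.

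Ciart, a repressor of the clock that itself cycles, read 4.62, 4.70 and 5.30 in SIRT1Tg and 4.52, 6.19 and 7.18 in CR (-1.23 ± 0.33, limma adjusted p = 0.0472). The call was kept in 5 of 24 omissions of 1 array. It was lost with the matrix values, without background correction and with the 12 arrays alone (-1.20, limma adjusted p = 0.0888). A further probe of the gene gave -1.65. CLOCK and BMAL1 are known to bind the E-box CACGTG, which was in the window of 2187 of 27025 genes (8.09%), of 890 of the 7498 tested genes with a window (11.9%), and of 3 of the 14 tested clock genes that have a window, Ciart, Per1 and Tef. Of the 5 clock genes that passed and have a window it was in Ciart alone. That window is shown because it holds 3 E-boxes, starting 116, 58 and 44 bases before the start. The 250 bases before the start lie at chr3:95882229-95882478 and are printed on the minus strand, 5′ to 3′, assembly GRCm38.p6, with the E-boxes in capitals.
Ciart: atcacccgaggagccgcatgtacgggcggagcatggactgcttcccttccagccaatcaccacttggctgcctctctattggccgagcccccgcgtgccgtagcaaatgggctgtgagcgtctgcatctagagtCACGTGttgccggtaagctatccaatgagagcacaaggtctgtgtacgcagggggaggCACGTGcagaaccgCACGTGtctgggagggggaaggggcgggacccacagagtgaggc

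Cytochromes of the Cyp2 family were among the largest differences in favour of CR. Cyp2b9, a cytochrome that is female-biased in mouse liver, read 4.40, 6.61 and 8.27 in SIRT1Tg, where 3 arrays were above background, and 8.44, 9.26 and 10.24 in CR. The fitted difference was -3.83 ± 0.89 (limma adjusted p = 0.0203), and its size depended on how the number series was handled. The 12 arrays alone, with no series term, gave -2.96. The 3 SIRT1Tg animals above 2000 against CR gave -4.04 (limma adjusted p = 0.00408). The call was lost without liver_2207_SiRT1 or liver_2223_SiRT1. Cyp2b23, also above background on only 3 SIRT1Tg arrays, read 4.08, 4.55 and 6.14 against 6.28, 7.25 and 7.77 (-2.77 ± 0.44, adjusted p = 0.00096; -2.36 with the 12 arrays alone). For both, arrays at background make the size of the difference uncertain. For both genes every CR array lay above every SIRT1Tg array. Cyp2a5 (-1.24), Cyp2c70 (-1.23), Cyp2g1 (-1.03) and the glutathione transferase Gstm2 (-1.23) also passed, which made 6 of 41 xenobiotic genes higher in CR and 0 higher in SIRT1Tg, with a list median of -0.072. The count of 6 was 3 without liver_2207_SiRT1, 4 without liver_2223_SiRT1 or liver_2239_CR and 2 with aligned array medians. Calls higher in CR over all 9973 features moved too, from 152 to 52, 111, 75 and 38 in the same order. The cytochromes and the glutathione transferase belong to multigene families with near-identical members, so which member a probe reads is uncertain. Of 21 genes that are male-biased in mouse liver, the steroid enzyme Hsd3b5 was higher in CR (9.26 to 11.35 against 5.71 to 8.84; -3.10 ± 0.70, adjusted p = 0.0167), as was Nudt7, a hydrolase of coenzyme A in peroxisomes (12.05 to 12.96 against 10.69 to 11.51; -1.27 ± 0.16, adjusted p = 7.23e-05). Elovl3 was the 1 male-biased gene higher in SIRT1Tg, and the list median was -0.036.

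Several genes of other functions were among the largest differences. Cdkn1a, the cell cycle inhibitor p21, read 8.95, 9.38 and 10.39 in SIRT1Tg and 5.27, 6.92 and 8.27 in CR, with no overlap (3.07 ± 0.53, 8.37-fold, limma adjusted p = 0.00242), and its 2 further probes gave 1.96 and 2.54 (unadjusted p = 0.00011 and 1e-05). Csad, an enzyme of taurine synthesis, ran from 8.29 to 11.21 against 7.08 to 8.66 (2.17 ± 0.51, adjusted p = 0.0238). Clstn3, a calsyntenin, ran from 8.43 to 9.46 against 6.78 to 7.26 (2.10 ± 0.31, adjusted p = 0.00064), although a second probe of the gene gave only 0.27. The kinase Aatk (1.78), the torsin Tor3a (1.65), the tubulin Tubb2b (1.59) and the laminin chain Lamb3 (1.58) were also higher in SIRT1Tg, and a second Tubb2b probe gave 0.10. Among genes higher in CR were the kinase Dclk3 (-1.97), the zinc importer Slc39a4 (-1.64), the immediate early factor Junb (-1.29) and the coagulation factor F11 (-1.10). A further probe of Slc39a4 gave -0.47, and the further probes of F11 gave -0.22 and -1.08. The autophagy protein Map1lc3a was 1.07 ± 0.20 higher in SIRT1Tg without overlap (adjusted p = 0.00363). Of 19 cell cycle genes Cdkn1a was the 1 higher in SIRT1Tg, and the list median was -0.397. Thymidine kinase Tk1 (-1.09) and Birc5 (-0.67), which are raised in dividing cells, were higher in CR, but their further probes ranged from -0.37 to 0.19.

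The medians of the immune gene lists lay below 0, while the number of single genes that passed depended on the number series term, the dim array and array weights. Of 33 interferon response genes, Irf7, a factor that amplifies interferon signalling, was higher in CR and 0 were higher in SIRT1Tg, with a list median of -0.771. Irf7 read 4.64, 5.72 and 5.86 in SIRT1Tg and 6.40, 6.66 and 7.52 in CR (-1.14 ± 0.31, limma adjusted p = 0.0449). The interferon count was 7 with the 3 animals above 2000, 14 with the 12 arrays alone, 19 when these also lacked the dim array and 15 with array weights. Calls higher in CR over all 9973 features rose too, from 152 in the main fit to 356, 305, 802 and 868 in these settings. Without the dim array alone there were 334, without liver_1961_WT 235, without liver_2230_CR 183 and without liver_1954_SiRT1 176. The interferon count was 5 without liver_1961_WT, 7 without liver_2230_CR, 2 without liver_1954_SiRT1, 3 without the dim array, and 0 when any other SIRT1Tg or CR array, or any WT array but liver_1961_WT and liver_1960_WT, was left out. In these omissions that gave 0, calls higher in CR over all features ran from 52 to 138. Of 13 antigen presentation genes 0 passed in limma (median -0.675); without the dim array 3 did, as did 3 with the 12 arrays alone and 6 when these lacked the dim array. The B cell receptor component Cd79b (-0.96, adjusted p = 0.0441) was the 1 of 12 lymphocyte markers that passed, in the fit and in 9 of 24 omissions of 1 array; the 12 arrays alone gave 5. In the same test 0 of 11 Kupffer cell markers passed (median -0.504). The mean of the lymphocyte markers ran from 4.63 to 5.08 in SIRT1Tg and from 4.72 to 5.90 in CR, and that of the Kupffer markers from 6.45 to 7.30 and from 6.63 to 7.93, whereas the 12 hepatocyte markers ran from 12.10 to 12.48 and from 11.96 to 12.26. The part of cell makeup in these differences was not tested. The acute phase protein Orm1 was higher in CR (-0.76, adjusted p = 0.0144), and its relative Orm2 had a value of -1.31 that missed the threshold (adjusted p = 0.0623).

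The freely fed wild-type livers gave a reference level for both groups. SIRT1Tg and CR share these controls, so the values are given side by side only. Against WT, 6 genes passed in SIRT1Tg (0.0602%) and 27 in CR (0.271%). Of the 52 named genes that passed between SIRT1Tg and CR, 1 passed against WT in SIRT1Tg and 13 in CR. Plin4 was 0.76 ± 0.26 above WT in SIRT1Tg and 2.04 ± 0.29 below it in CR (limma adjusted p = 0.336 and 0.00172). For Fgf21 the values were 0.49 and -2.20 (adjusted p = 0.00478 in CR), and for Pdk4 they were 1.43 (adjusted p = 0.0905) and -1.67 (adjusted p = 0.0483). Lamb3 stood at -0.05 in SIRT1Tg and -1.63 in CR (adjusted p = 0.00653), Elovl3 at 0.01 and -1.44 (0.0307), and Hsph1 at 0.52 and -0.92 (0.0167). In the genes higher in CR, Acaca stood at -0.03 in SIRT1Tg and 0.98 in CR (adjusted p = 0.025), Abcg5 at -0.31 and 0.91 (0.0377), Cyp2b23 at -0.19 and 2.58 (0.0106) and Slc39a4 at 0.24 and 1.87 (0.0165). The genes of this paragraph come from the 13 that passed in CR, and none of them passed in SIRT1Tg. For each the value in CR was the larger in size, and that difference in size was not tested. The choice of genes makes a larger value in CR likely, so nothing is read from it.

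F11, a protease of the clotting cascade, was the 1 of the 52 that passed in SIRT1Tg. It stood at -1.07 ± 0.19 against WT in SIRT1Tg (limma adjusted p = 0.0378) and at 0.04 in CR. Irf7 (-1.29 and -0.15), Junb (-1.17 and 0.12), Hsd3b5 (-2.27 and 0.84) and Nr1d1 (-1.04 and 0.46) also had their larger value in SIRT1Tg, although none of these 4 passed there (adjusted p from 0.0526 to 0.295). Others did so with SIRT1Tg above WT, such as Cdkn1a (1.63 and -1.43) and Hspb1 (1.11 and -0.88), which did not pass there either. These genes were picked for the larger value in SIRT1Tg, so nothing is read from it. The median of the PPAR alpha targets was 0.192 against WT in SIRT1Tg and -0.507 in CR, that of fatty acid synthesis -0.034 and 0.369, and that of the interferon list -0.696 and 0.021, beside -0.021 and 0.01 for all genes.

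**Figure D4:**
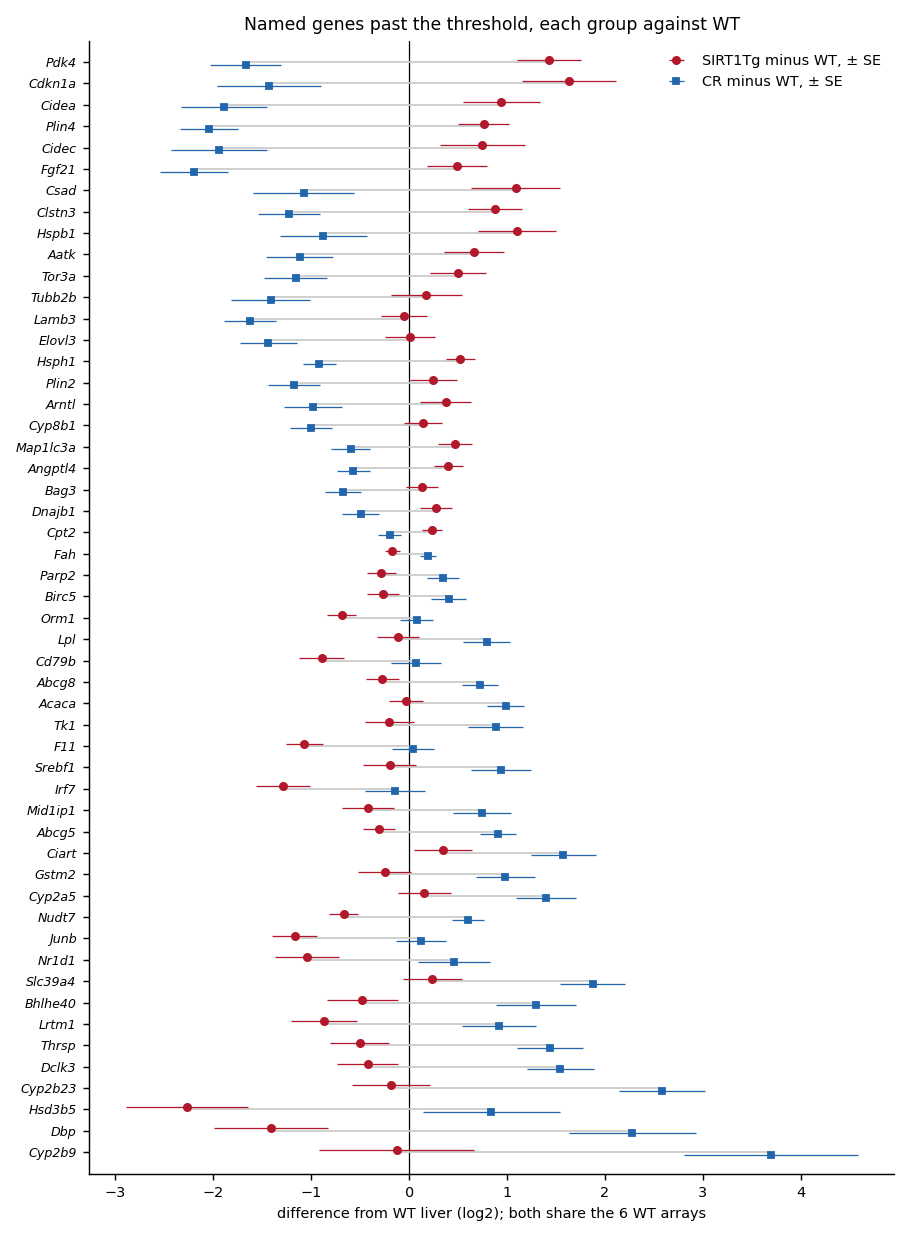
For each of the 52 named genes that passed, the difference from freely fed WT liver (log2) in SIRT1Tg and in CR, with standard errors. Plin4 and Fgf21 lie below 0 in CR (-2.04 and -2.20), Acaca and Cyp2b23 lie above it (0.98 and 2.58), and F11 lies below it in SIRT1Tg (-1.07); both differences use the same WT arrays.

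The same contrast in the other tissues of the series was smaller for Plin4, Cidec and Pdk4. SIRT1Tg against CR gave 10 calls of 9450 genes in skeletal muscle (0.106%), 97 of 10025 in brown adipose tissue (0.968%) and 252 of 11791 in epididymal white adipose tissue (2.14%). Sirt1 was 2.0, 1.66 and 2.51 higher in SIRT1Tg in these tissues and passed in each. Plin4 was at 0.30, -0.02 and 0.10, Cidec at -0.41, 0.42 and 0.23, and Pdk4 at 0.62, 0.48 (limma adjusted p = 0.0467) and 1.51 (adjusted p = 0.0235). All were among the 12 largest rises in liver. Means in SIRT1Tg and CR white fat were 13.69 and 13.54 for Plin4 and 13.36 and 13.17 for Cidec. In muscle they were 13.09 and 12.38 for Pdk4, but 5.81 and 6.15 for Cidec. In liver Plin4 was at 8.34 and 6.07. A narrower range of differences at bright probes was not tested. The difference in liver less the mean of the other tissues passed for 468 of 9973 genes (4.69%), among them Plin4 (2.59), Cidec (2.54) and Pdk4 (2.12).

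For other genes the difference from the other tissues missed the threshold in the fit without pairing. Cdkn1a was 1.20, 1.24 and 1.64 higher in SIRT1Tg in muscle, brown and white fat (limma adjusted p = 0.0098 in white fat), and the difference from liver was 1.51 (adjusted p = 0.0666, and 0.0447 with the animal as a block). Hspb1 was 0.81, 1.34 (adjusted p = 0.00997) and 1.25 (adjusted p = 0.0212) higher, with a difference from liver of 0.70 (adjusted p = 0.336). Dbp was at -0.80, -1.47 and -2.37 (adjusted p = 0.0127), with a difference from liver of -1.84 (adjusted p = 0.0516, 0.0404 with the animal as a block and 0.0472 without the dim array). Arntl was at 0.80, 0.84 and 0.80, and Acaca at -1.04, -0.17 and -1.11, with adjusted p of 0.329 and 0.897 for the difference. Each slide with a SIRT1Tg array of brown or white fat held only SIRT1Tg arrays of that tissue, so slide and group cannot be told apart within either fat.

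**Figure D5:**
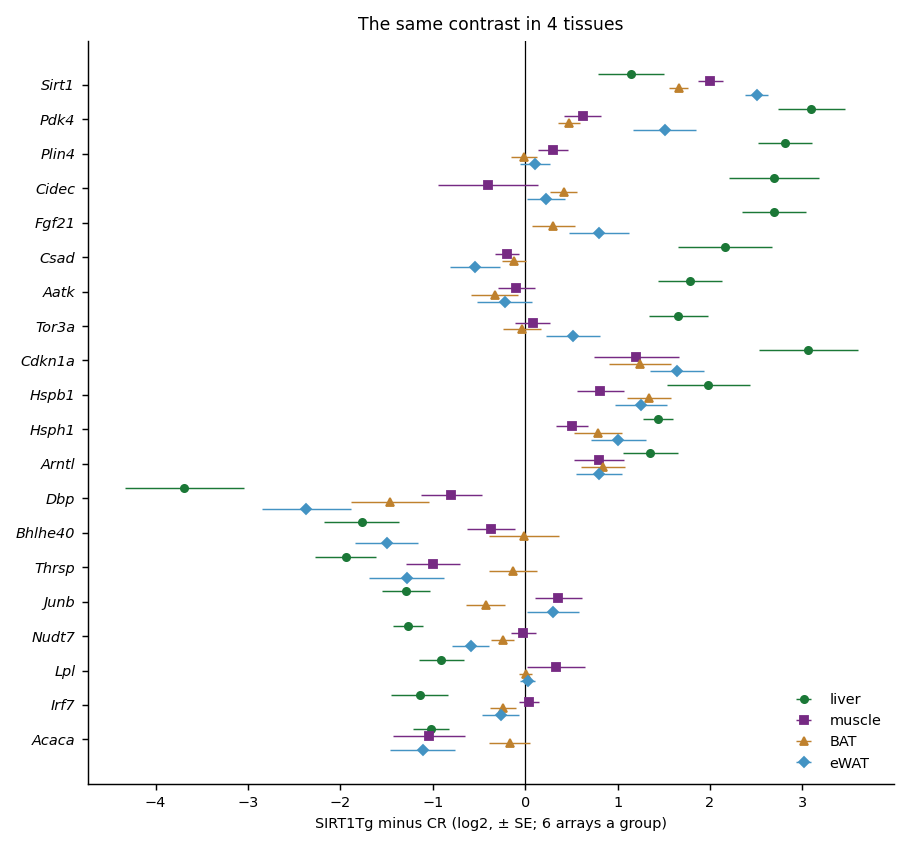
SIRT1Tg minus CR (log2) for selected named genes in liver, skeletal muscle, brown adipose and epididymal white adipose tissue, with standard errors and 6 arrays a group. Plin4 and Cidec stand near 2.81 and 2.69 in liver and between -0.41 and 0.42 elsewhere, while Cdkn1a and Hspb1 lie above 0 in all 4 tissues.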

How the data were processed

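Total RNA of liver, skeletal muscle, brown adipose tissue and epididymal white adipose tissue was measured on 96 Illumina bead arrays. The deposited file of probe intensities holds values without normalisation, and GenomeStudio and Partek are the tools the submitters' processing notes name, with no versions. The authors' series matrix is on a log2 scale, read from its values; every column has a median of 6.72 and sorted columns differ by at most 0.0037, so they were read as quantile-normalised and used as an alternative only.

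The plan named limma's neqc, which needs control probes or detection p-values; these were not used here, and the peak of each array's log2 density (bandwidth 0.03) served as its background, corrected by normexp with an offset of 16. Liver arrays were then quantile-normalised. A probe was above background past the upper 0.05 tail, and 13206 of 25697 probes passing on 6 or more of 24 liver arrays were kept. The brightest probe stood for a gene, which left 9973 features, 9189 with a symbol from RefSeq (GRCm38.p6; 23962 probes by gene ID, 16 by platform symbol, 1719 without one). limma 3.58.1 in R 4.3.3 fitted condition and number series over 24 arrays (lmFit, eBayes), and the contrast SIRT1Tg minus CR was adjusted by Benjamini-Hochberg over all features, with a threshold of 0.05. All adjusted p-values are from limma. The scripts were tested on simulated data.

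The comparison, its gene lists (46 lists, 915 of 1023 entries on the array) and the named genes were chosen with earlier results of these data known. Named are Sirt1, the 12 largest differences in each direction that kept their sign in both repeats, up to 4 genes of each list that passed, and a set of metabolic and clock genes taken whatever their values; further list members were picked after their values were seen. Same-numbered samples of different tissues were taken as 1 animal, and the deviations of such pairs correlated at a median of 0.0618 (69 pairs), against -0.00834 for different animals of a condition (363 pairs). Promoter windows are RefSeq's. Alternatives were the matrix, background, scaling, filter, number series, slide, array weights and single arrays left out. The number of arrays limits the precision.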

Additional observations from a re-analysis of the deposited data

Results flagged for a closer look

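In groups of 6 arrays, a sample was singled out where its gap to the nearest other array was a larger share of the group's range than Dixon's 95% critical value, which chance gives in about 1 in 20 groups; 13 of the 116 groups examined met it. Array liver_1953_SiRT1, the dim one, was lowest for probes above background (gap 0.852 of the range), Sirt1 (0.902), Ppargc1a (0.739), Dclk3 (0.712), Mid1ip1 (0.660) and Abcg5 (0.650). Array liver_1955_SiRT1 was lowest for Irf7 (0.709) and Nr1d1 (0.674) and highest for Cyp2a5 (0.640). In CR, liver_2236_CR was lowest for Dbp (0.835) and highest for Hspb1 (0.646), liver_2245_CR was highest for Aatk (0.683) and liver_2239_CR for Irf7 (0.643).

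The difference SIRT1Tg minus CR in liver, less its mean in muscle, brown and white fat, passed limma's test at an adjusted p under 0.05 for 32 of the 57 named genes, and for 468 of all 9973 genes (4.69%). Most of the 57 were chosen for a large difference in liver, which makes such a call more likely, so nothing is read from that share. It lay above 0 for the lipid genes Cidea (3.69), Plin4 (2.59), Cidec (2.54), Fgf21 (2.20), Pdk4 (2.12) and Elovl3 (1.45), for Csad (2.34), Clstn3 (2.28), Aatk (1.95), Tor3a (1.46), Tubb2b (1.23), Lamb3 (1.21) and Map1lc3a (0.91), and for the bile acid enzyme Cyp8b1 (1.08). It lay below 0 for the cytochromes Cyp2b9 (-3.66), Cyp2b23 (-2.91) and Cyp2a5 (-1.09), for Hsd3b5 (-2.92), Slc39a4 (-1.52), Lrtm1 (-1.40), Junb (-1.34), Ciart (-1.15), Tk1 (-1.03), Irf7 (-1.01), F11 (-0.98), Lpl (-0.96), Nudt7 (-0.91), Birc5 (-0.71) and Parp2 (-0.51), and for the sterol transporters Abcg5 (-1.06) and Abcg8 (-0.88). For Sirt1 it was -0.98, the raised level being smaller in liver, and this value includes the dim array. The probes of Fgf21, Clstn3, Cyp2b9, Hsd3b5, Cyp2b23, Slc39a4, Cyp2a5, Elovl3, Tk1, Abcg5, Cyp8b1, Abcg8 and F11 missed the detection filter in at least 1 of the other tissues, so that for them the comparison includes values near background.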

How the results depend on the processing

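The count of genes past the threshold, 252, ranged from 96 (without liver_2207_SiRT1) to 607 (without liver_1953_SiRT1) when 1 array was left out. It moved by over 1.5 times also without liver_2222_SiRT1 (110), liver_2239_CR (135), liver_2242_CR (145), liver_2245_CR (147), liver_2226_WT (167) and liver_1961_WT (380). It was 49 with aligned array medians, 1 with slide as a fixed term, 3 with slide fixed and the dim array out, 433 with the 12 arrays alone, 518 in a joint fit of all tissues with slide fixed and 752 without it. The count was 603 with values recomputed without the dim array, 646 with the 3 SIRT1Tg animals above 2000, 735 without the number series, 755 with animals above 2000 and WT, 1336 with 11 arrays and 1480 with array weights. The joint fits, the recomputed values and the 2 combined settings were chosen after seeing the data. Of the 52 named genes that passed, 1 (Cidea) did so with slide fixed in liver, 46 in the joint fit with slide fixed, 16 with aligned medians and 27 in every omission of 1 array. Cidea had met the detection filter only through the SIRT1Tg arrays. No named gene that passed changed direction in any setting run, and all settings reuse liver arrays of the fit that picked the genes. Causes of these moves were not tested.

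Sirt1 passed with the matrix values (0.69), no background correction (0.68), an offset of 50 (0.90), the dim array left out (1.39), 11 arrays (1.36), recomputed values (1.42), aligned medians without the dim array (1.36), array weights (1.41), animals above 2000 with or without WT (1.41), and the joint fits (1.13, and 1.10 with slide fixed). Leaving out 1 array gave 0.994 to 1.39. Per1 became 0.17 with slide fixed and 0.32 with the dim array out as well, and Ppargc1a 0.68 and 0.56, none of which passed. With the animal number as a replicate block over the 4 tissues, 562 genes differed between liver and the other tissues, against 468 without pairing, and all 468 were among them; of the named genes 34 passed with it and 32 without, Cdkn1a and Dbp being the ones gained; without the number series 1144 did.

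Liver slides held SIRT1Tg or CR arrays but never both, so the fixed slide term leaves the contrast to links through WT and EX arrays. Arrays liver_1954_SiRT1, liver_2223_SiRT1, liver_2207_SiRT1 and liver_1953_SiRT1 shared slides with no liver array of another group. They therefore had no such link, and the liver fit with slide fixed has little power. Sirt1 itself was at 1.78 there and did not pass (limma adjusted p = 0.806). Leaving out background correction reduced the named differences to a median of 0.717 of their size.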
